A study of Canis lupus familiaris with 6 samples.

Results

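CC chemokines and the receptors that bind them were examined in whole blood of Beagle dogs, taken as the rows of the deposited table whose symbol is CCL3, CCL4, CCL5, CCR1, CCR2, CCR3, CCR6, CCR7 or CCR9. All 9 symbols were found, each in 1 row, among 31512 rows in all. Healthy adult dogs of 1.5 years ate a maintenance food, followed by 30 g of snack. The control dogs had the snack without casein phosphopeptide-selenium chelate (CPP-Se), and the CPP-Se dogs had it with 0.03% CPP-Se. Blood was drawn on day 30. The labels call the 3 libraries of each group biological replicates, and each is taken here as 1 dog. The study fed more dogs than there are libraries, and how those sequenced were picked is not given in the sources used here. No sort was applied, and a lower level in whole blood from fewer cells of a type or from less RNA per cell cannot be told apart.

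Chemokines are small secreted proteins that guide leukocytes along gradients, and the CC class is named for adjacent cysteines near the start of the mature protein. CCL3, CCL4 and CCL5 are inflammatory ligands made by activated T cells, natural killer (NK) cells and myeloid cells, and CCL5 is also stored in platelets. Their receptors have 7 transmembrane helices and signal through inhibitory G proteins. CCR1 and CCR2 draw monocytes to inflamed tissue, CCR3 is the receptor of eosinophils and basophils, CCR7 leads naive lymphocytes into lymph nodes, CCR6 marks B cells and some T cells, and CCR9 directs T cells to the small intestine.

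The only sequences of these genes in the sources used here are the oligonucleotides with which the study measured CCL4 and CCR9 by RT-qPCR. They are shown, 5′ to 3′, because CCL4 and CCR9 are the members the study also measured by a second method. They were not matched to any sequence here. In RefSeq (UU_Cfam_GSD_1.0), the transcripts listed for these primer pairs carry the symbols CCL4 and CCR9. The RT-qPCR values were not analysed here.
CCL4 forward: tcctactgcctgctgctt
CCL4 reverse: gctggtctcaaagtaatctgc
CCR9 forward: cacttcctcccacccttgta
CCR9 reverse: tggtcttgactctggtgcag

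Of the 9 genes, 8 lie on chromosomes 9 and 20 of the dog genome of Ensembl release 100. On chromosome 20, CCR2 (ENSCAFG00000013786, 42307580 to 42308698), CCR3 (ENSCAFG00000013794, 42383135 to 42384217), CCR1 (ENSCAFG00000013805, 42421356 to 42426958) and CCR9 (ENSCAFG00000013879, 42607024 to 42616823) follow one another within 309 kb. The other receptors are CCR7 (ENSCAFG00000030300, chromosome 9, 22068775 to 22090656) and CCR6 (ENSCAFG00000030966, chromosome 1, 54932690 to 54959740). CCL5 (ENSCAFG00000018171) lies on chromosome 9, 37817305 to 37823852, on the plus strand.

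The CCL4 row (ENSCAFG00000018164) spans 37676966 to 37710209 of chromosome 9 on the minus strand, and the CCL3 row (ENSCAFG00000018167, 37686480 to 37695573) lies wholly inside it on the plus strand. The overlap is 9094 bases, or 100% of the CCL3 span. The description attached to the CCL4 row is C-C motif chemokine 3, the same protein name as on the CCL3 row. In RefSeq, by contrast, the genes named CCL3 and CCL4 are neighbours that do not overlap. Whether reads were assigned by strand is not given in the sources used here, so the values of these 2 rows belong to the rows as annotated, and reads of one ligand under the other name cannot be told apart.

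**Figure D1:**
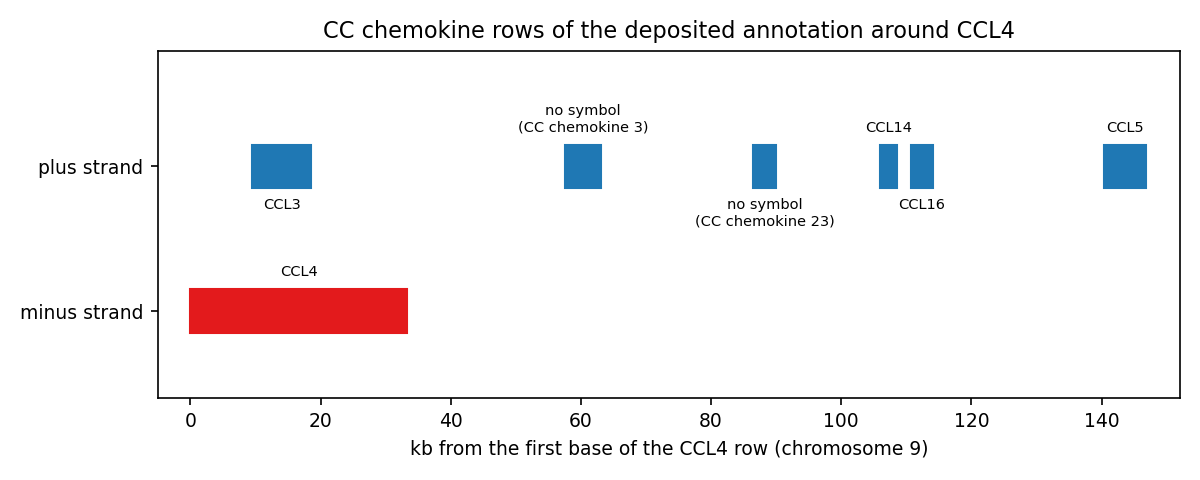
CC chemokine rows of the deposited annotation from the first base of the CCL4 row, in kb along chromosome 9, with plus-strand rows above and the minus-strand row below. The CCL3 row sits inside the 33.2 kb CCL4 row, and CCL5 begins 140.3 kb from the first base of CCL4.

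Between 6598173 and 8067034 reads lay on genes in each library, as recovered from the FPKM (fragments scaled by the authors to gene length and a size per library). Hemoglobin genes took 48.7% to 55.9% of these reads in 5 dogs and 36.6% in CPP-Se replicate 2, whose implied library size was 1.65 times its reads on genes. In control replicate 2 and CPP-Se replicates 1 and 3 the implied size was below the reads on genes (0.933, 0.944 and 0.882 times). The implied sizes followed the median-of-ratios size factors of the recovered reads (1.78 in CPP-Se replicate 2) rather than the reads on genes. The members had a mean of 1.67 (CCL3) to 656 (CCR7) reads per dog, and the median gene tested had 80.7. Recovered reads are PCR copies without molecular identifiers, so a floor of 3 reads for a count of 0 covers counting error only.

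Among the members, levels per gene length were highest for the receptors CCR1 and CCR7. In the control dogs CCR1 (mean 35.8 FPKM), CCR7 (30.2 FPKM) and CCR2 (15.6 FPKM) stood at the top, and each overlapped its neighbour in this order. The lowest CCR2 dog (11.7 FPKM) was above the highest CCR3 dog (6.20 FPKM). Below them CCR3 (4.83 FPKM), CCL5 (3.71 FPKM) and CCR9 (3.51 FPKM) overlapped one another in order, whereas CCR6 (2.61 FPKM) and CCL4 (1.08 FPKM) were apart from the members next to them. In the CPP-Se dogs CCR7 (39.2 FPKM) stood above CCR1 (23.6 FPKM) without overlap. From CCR1 down to CCR6 (3.14 FPKM), every pair of neighbours overlapped in those dogs. Within this run CCL5 (13.01 FPKM), CCR3 (9.69 FPKM), CCR9 (9.53 FPKM), CCR2 (9.33 FPKM) and CCL4 (6.89 FPKM) held the places between.

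**Figure D2:**
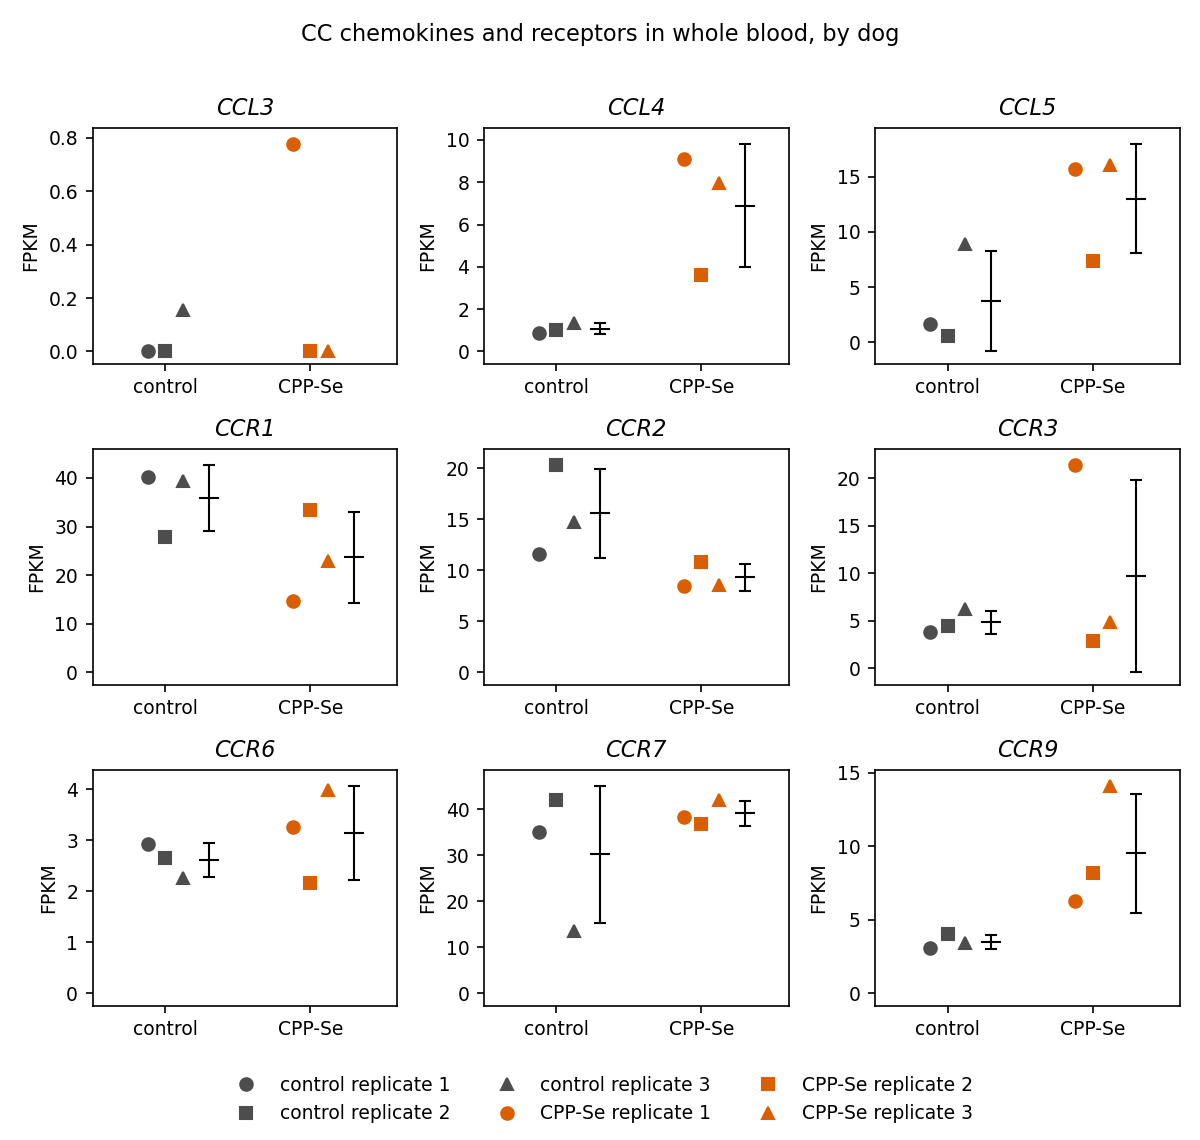
FPKM of the 9 genes in each dog (control in grey, CPP-Se in orange, marker shape for the replicate number), with the mean and SD of 3 dogs beside the points except for CCL3, which is listed at 0 in 4 dogs. CCL4 and CCR9 in the CPP-Se dogs lie above all control dogs, CCR2 lies below them, and the other 6 genes overlap.

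CCL4, an inflammatory ligand, had the smallest p of the members. Its FPKM were 0.854, 1.03 and 1.36 in the control dogs, by replicate number. In the CPP-Se dogs, again by replicate number, they were 9.10, 3.60 and 7.97. All CPP-Se dogs were above all control dogs, and the lowest of them was CPP-Se replicate 2. The reads behind these values were 8, 9 and 15 in the control dogs, against 80, 66 and 67 with CPP-Se. Mean expression was 1.08 ± 0.257 FPKM without and 6.89 ± 2.90 FPKM with CPP-Se (all errors after ± are SDs over n = 3 dogs). On the log2(FPKM + 1) scale CCL4 was higher by 1.85 (standard error 0.32, 95% interval 1.12 to 2.58), which did not pass over all genes tested (adjusted p = 0.138, limma with Benjamini-Hochberg adjustment). A pseudocount of 1 lowers the difference of a gene at this level, and with 0.1 it was 2.48 (adjusted p = 0.155).

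CCL4 passed in 3 of 16 other settings. The log2 difference was 2.65 when the recovered reads were fitted with a negative binomial model (adjusted p = 6.76e-05) and likewise 2.65 by limma-voom with sample quality weights (adjusted p = 0.0415). Without CPP-Se replicate 2 it was 2.20 (adjusted p = 0.0377 from limma). In the fit that left out 1 of the other 5 dogs at a time, the adjusted p was 0.176 to 0.459, and over the other processing settings tried it was at most 0.250.

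CCL3, whose product shares receptors with that of CCL4, had almost no reads of its own. It was listed at 0 in control replicates 1 and 2 and in CPP-Se replicates 2 and 3, and had 2 reads in control replicate 3 and 8 in CPP-Se replicate 1. The latter dog also had the most CCL4 reads, and CCL3 made up 9.09% of the reads of both rows there. At a mean of 0.155 FPKM CCL3 was below the minimum of 1 FPKM and was not tested. Summing the reads of both rows before the fit gave 8, 9 and 17 in the control dogs, against 88, 66 and 67 with CPP-Se, so the groups stayed apart. The log2 difference of the sum was 1.44 (standard error 0.32, adjusted p = 0.143 from limma), at a gene length that adds the 2 rows.

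CCL5, known as RANTES, had a large log2 difference and a wide spread among control dogs. Its FPKM were 1.69, 0.542 and 8.90 in the control dogs, against 15.7, 7.35 and 16.0 with CPP-Se. Control replicate 3 was above CPP-Se replicate 2, so the groups overlapped. CCL5 was higher by 1.95 on the log2 scale (standard error 0.64, 95% interval 0.47 to 3.44, adjusted p = 0.222 from limma). Leaving out control replicate 3 gave 2.71 (adjusted p = 0.194), and leaving out control replicate 2, which had 3 reads, gave 1.37 (adjusted p = 0.390). Scaling the libraries to the reads outside hemoglobin genes separated the groups and gave 2.04 (adjusted p = 0.234), a setting that moved the median of all genes from -0.0043 to 0.10 on the log2 scale.

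Among the receptors of myeloid cells, CCR2, the receptor for monocyte chemoattractant proteins, was lower in the CPP-Se group. It had 11.7, 20.3 and 14.8 FPKM in the control dogs, against 8.51, 10.9 and 8.62 FPKM with CPP-Se, without overlap, although control replicate 1 and CPP-Se replicate 2 were close. The log2 difference was -0.66 (standard error 0.23, 95% interval -1.19 to -0.12, adjusted p = 0.250 from limma). With the libraries scaled to the reads outside hemoglobin genes the groups overlapped and the difference was -0.53 (adjusted p = 0.421). The CCR2 row covers 1119 bases in 1 block, and how reads shared with similar receptor genes were handled is not given in the sources used here.

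CCR1, a receptor for CCL3 and CCL5, pointed the same way but overlapped. Control replicates 1, 2 and 3 had 40.1, 27.9 and 39.3 FPKM, and the CPP-Se dogs had 14.7, 33.4 and 22.8 FPKM. CPP-Se replicate 2 was above control replicate 2, and the other CPP-Se dogs were below all control dogs. The log2 difference was -0.63 (standard error 0.31, 95% interval -1.34 to 0.08, adjusted p = 0.363 from limma). It was -0.91 without CPP-Se replicate 2 (adjusted p = 0.208) and -0.34 without CPP-Se replicate 1 (adjusted p = 0.610).

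CCR3 was set apart by a single dog. Its FPKM were 3.79, 4.49 and 6.20 in the control dogs, against 21.3, 2.91 and 4.83 with CPP-Se, so CPP-Se replicate 1 was high and the other 5 dogs overlapped. The log2 difference was 0.48 (standard error 0.58, 95% interval -0.87 to 1.83, adjusted p = 0.734 from limma), and without CPP-Se replicate 1 it turned to -0.27 (adjusted p = 0.723). The high dog had 148 reads on CCR3, against 28 to 54 in the others.

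Of the receptors of lymphocytes, CCR9 was higher in the CPP-Se group without overlap. The control dogs had 3.07, 4.04 and 3.41 FPKM from 26, 32 and 34 reads. The CPP-Se dogs had 6.29, 8.22 and 14.1 FPKM from 50, 136 and 107 reads. The highest was CPP-Se replicate 3, and the lowest CPP-Se dog was still above the highest control dog. CCR9 was higher by 1.16 on the log2 scale (standard error 0.28, 95% interval 0.51 to 1.81, adjusted p = 0.161 from limma). Only the negative binomial model called it among the settings tried, with a log2 difference of 1.44 (adjusted p = 0.0110). With 1 dog left out the difference lay between 0.87 and 1.39, and the adjusted p between 0.176 and 0.459.

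CCR7, which naive T cells use to enter lymph nodes, did not separate the groups. It had 35.1, 42.0 and 13.5 FPKM in the control dogs, against 38.4, 36.9 and 42.1 FPKM with CPP-Se. Control replicate 3 was low, while the other 5 dogs lay within 35.1 to 42.1 FPKM. The log2 difference of 0.50 (standard error 0.38, 95% interval -0.38 to 1.39, adjusted p = 0.568 from limma) became 0.03 without control replicate 3 (adjusted p = 0.973) and 0.81 without control replicate 2 (adjusted p = 0.429).

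CCR6, the receptor of CCL20, had the narrowest range of the members tested. It had 2.93, 2.65 and 2.27 FPKM in the control dogs, against 3.26, 2.17 and 3.99 FPKM with CPP-Se. The groups overlapped, with CPP-Se replicate 2 below every control dog and the other CPP-Se dogs above them. The log2 difference was 0.18 (standard error 0.23, 95% interval -0.36 to 0.71, adjusted p = 0.751 from limma). It was 0.36 without CPP-Se replicate 2 and 0.03 without CPP-Se replicate 3 (adjusted p = 0.489 and 0.964). The ligand CCL20 was listed at 0 in every dog.

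Over the 8 members tested, 0 passed an adjusted p under 0.05 with a fold change of at least 1.5 (limma on log2(FPKM + 1), over 9847 genes whose mean reached 1 FPKM). Over all genes tested 3 passed, or 0.0305%. An unadjusted p under 0.05 was found for 4 members, CCL4, CCL5, CCR2 and CCR9, against 16.0% of all genes. The CPP-Se dogs lay above all control dogs in 2 members (10.4% of all genes) and below them in 1 (12.6% of all genes). Of the 8, 6 were higher with CPP-Se and 2 were lower, at a median log2 difference of 0.49, beside -0.0043 over all genes tested. A difference at least as large as that of CCL4 was found in 0.376% of the genes tested.

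Other settings called up to 2 of the members. The negative binomial model called CCL4 and CCR9, and 3.08% of all genes. Limma-voom with sample quality weights called CCL4 and 1.87% of all genes. The fit without CPP-Se replicate 2 called CCL4 and 0.142% of the genes it tested, and in it CCL5, CCR6 and CCR1 also separated the groups, so that 4 members were higher (16.2% of all genes) and 2 lower (18.0% of all genes) without overlap. With 3 dogs against 2, separation was more common among all genes than with 3 against 3.

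**Figure D3:**
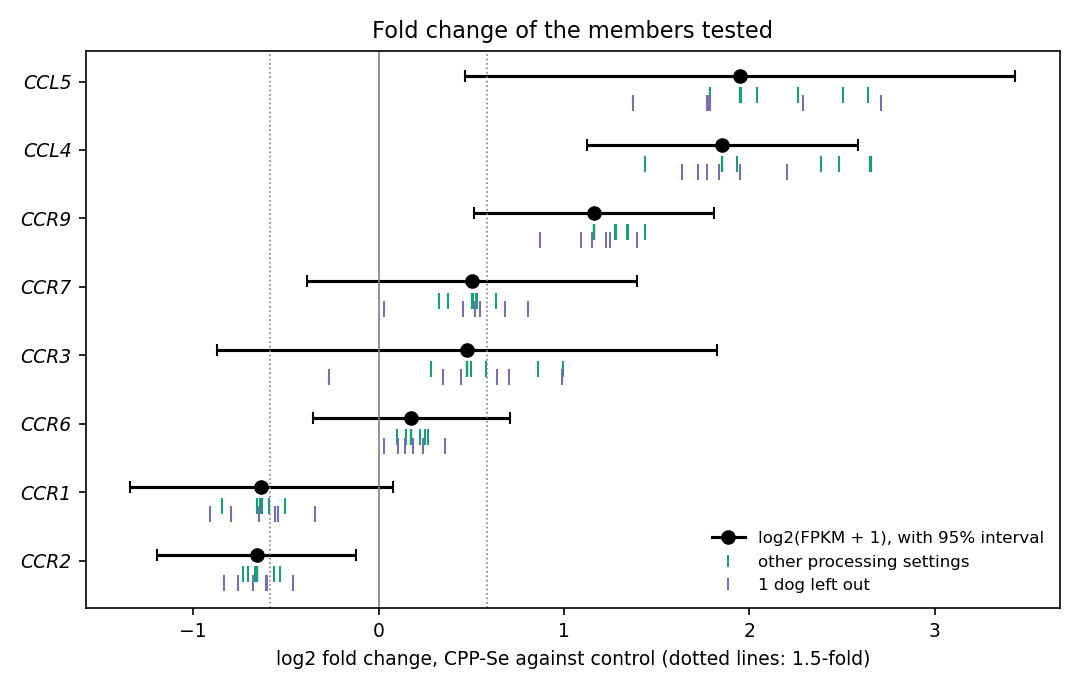
Log2 fold change of the 8 members tested, CPP-Se against control, with the 95% interval of the fit on log2(FPKM + 1) in black, other processing settings in green and fits with 1 dog left out in purple. CCL5, CCL4, CCR9, CCR7 and CCR6 stay above 0 in every setting, CCR1 and CCR2 stay below 0, and CCR3 crosses 0 when CPP-Se replicate 1 is left out.

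The rest of the CC family and its relatives was sparse in these libraries. Of 33 further symbols (other CC ligands and receptors, atypical receptors, XCL1, XCR1, CX3CL1 and CX3CR1), 26 had a row, and 12 of these were listed at 0 in every dog, among them CCL17, CCL22 and CCL28. Another 2 rows without a symbol are described as C-C motif chemokines. Of the 28 rows, 8 reached a mean of 1 FPKM and were tested, and 0 passed, with 0 at an unadjusted p under 0.05 and 0 without overlap between the groups. Over all genes the shares were 0.0305%, 16.0% and, without overlap, 10.4% higher and 12.6% lower, so a count of 0 among 8 rows is near the background.

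CCL14, a ligand of CCR1, had the highest mean over the 6 dogs of these rows. At 52.4 FPKM it was also above CCR7 (34.7 FPKM), the highest of the members by that mean. CCL14 had 49.4, 36.3 and 45.7 FPKM in the control dogs, against 39.7, 34.9 and 108 FPKM with CPP-Se. Of the latter only CPP-Se replicate 3 was high (log2 difference 0.29, 95% interval -0.66 to 1.23). The row described as C-C motif chemokine 23, another CCR1 ligand, had a mean of 13.5 FPKM and a difference of 0.18 (95% interval -0.44 to 0.79).

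CX3CR1, the fractalkine receptor, differed by -0.03 (95% interval -0.75 to 0.70) and CCRL2, a receptor-like protein, by -0.19 (95% interval -0.80 to 0.42). For CCR4, which marks helper T cells drawn to skin, the difference was -0.11 (95% interval -1.21 to 0.99). The values for CCR10, a receptor of skin and mucosal homing, and CCR8 were 0.19 (95% interval -0.47 to 0.86) and -0.63 (95% interval -1.57 to 0.32). CCR8 had a mean of 1.40 FPKM, the lowest of the rows tested.

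Downstream of the receptors, a list of 25 genes for G protein subunits, arrestins, receptor kinases, phosphoinositide 3-kinases and regulators of RAC and actin was tested in full. In the CPP-Se group 19 were lower and 6 higher, with a median log2 difference of -0.27, and 0 passed (lowest adjusted p = 0.190 from limma). An unadjusted p under 0.05 was found for 8, all lower (16.0% of all genes in either direction), and 9 lay below the control dogs without overlap (12.6% of all genes). GNG2, a G protein gamma subunit, had 108 ± 22.5 FPKM without and 61.2 ± 11.95 FPKM with CPP-Se (log2 difference -0.81). ARRB1, an arrestin that ends receptor signaling, had 5.29 ± 0.522 and 3.17 ± 0.247 FPKM (log2 difference -0.59), and PREX1, an activator of RAC, had 121 ± 12.95 and 83.8 ± 24.2 FPKM (log2 difference -0.56). The first 2 of these did not overlap between the groups and PREX1 did.

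Marker genes of blood cell types are given beside the members, and their part in the members' values was not tested. In each marker list 0 genes passed over all genes tested (lowest adjusted p = 0.138 from limma, 0.0305% of all genes called), so the directions that follow are those of values that did not pass. For monocytes, the cells of CCR1 and CCR2, all 8 genes tested were lower in the CPP-Se group. Their summed level was 880 to 1032 FPKM in the control dogs and 456 to 490 FPKM in the CPP-Se dogs. VCAN and LYZ, a matrix proteoglycan and lysozyme, had the largest differences of that list, at -1.46 and -1.32 on the log2 scale, and CSF1R, the receptor of macrophage colony-stimulating factor, differed by -0.97. Of 8 neutrophil genes tested 6 were lower, and the sums of 2219 to 2969 FPKM and 1721 to 2230 FPKM overlapped. That overlap came with MMP9, a matrix metalloprotease gene, which had 729, 23.7 and 540 FPKM in the CPP-Se dogs against 68.3 to 96.3 FPKM in the control dogs (log2 difference 1.35). Without MMP9, left out after its values were seen, the sums did not overlap. They were 2133 to 2873 FPKM in the control dogs and 1181 to 1756 FPKM with CPP-Se. CXCR2, a receptor for CXC chemokines, differed by -1.21 without overlap, and the collagenase gene MMP8 by -1.21 with overlap.

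For NK and cytotoxic cells, a source of CCL3, CCL4 and CCL5, all 11 genes tested were higher in the CPP-Se group. Their sums were 37.7 to 62.9 FPKM in the control dogs and 79.4 to 114 FPKM in the CPP-Se dogs. TBX21, the transcription factor T-bet, differed by 1.55, the pore protein gene PRF1 by 1.31 and the activating receptor gene NCR3 by 1.17 on the log2 scale. Control replicate 3 had the lowest sum of this list and yet the highest CCL5 of the control dogs. The platelet sum, over 4 genes found, was 1480 FPKM in that dog against 776 and 701 FPKM in the other control dogs, and 877, 499 and 1759 FPKM in CPP-Se replicates 1, 2 and 3.

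For T cells, which carry CCR7 and CCR9, 14 of 16 genes were higher, with a median log2 difference of 0.64. The sum was nevertheless lower, at 1109 to 1383 FPKM in the control dogs and 934 to 1079 FPKM in the CPP-Se dogs. Most of it was CD4, which dog neutrophils also express, with 1019, 849 and 1256 FPKM in the control dogs, against 627, 796 and 613 FPKM with CPP-Se. Without CD4, left out after its values were seen, the sums were 127 to 260 FPKM in the control dogs and 283 to 358 FPKM with CPP-Se. CD6, a T cell surface glycoprotein, and CD3D, a chain of the T cell receptor complex, differed by 1.23 and 1.11 on the log2 scale, and CD27 by 0.91. For B cells 8 of 9 genes were higher, with sums of 282 to 404 FPKM and 430 to 471 FPKM, and CD22 and CD79B differed by 0.89 and 0.75.

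The markers of cells that carry CCR3 were low or varied between dogs. Eosinophil genes summed to 1.35 to 3.06 FPKM in the control dogs and 0.840 to 2.62 FPKM in the CPP-Se dogs, PRG3 was listed at 0 in all dogs, and only IL5RA was tested (log2 difference -0.70). IL5RA, a chain of the interleukin-5 receptor, had 1.74 FPKM in CPP-Se replicate 1, the dog high in CCR3, and 0.455 to 3.06 FPKM in the others. The eosinophil peroxidase gene EPX was highest in CPP-Se replicate 1, at 0.884 FPKM, against at most 0.385 FPKM in the others. Basophil and mast cell genes summed to 42.1 FPKM in CPP-Se replicate 1 and 33.3 FPKM in CPP-Se replicate 3, but to 7.05 FPKM in CPP-Se replicate 2 and 5.89 to 15.003 FPKM in the control dogs. CCR3 was high in the first of these dogs and not in the second. The chymase gene CMA1, the carboxypeptidase gene CPA3 and the transcription factor GATA2 differed by 1.81, 1.69 and 1.05 on the log2 scale, and MS4A2, the fourth gene tested, by -0.05. CMA1 did not overlap between the groups. CPA3 and GATA2 did, since CPP-Se replicate 2 was below all control dogs for both (0.173 and 0.309 FPKM).

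Summed levels of the other lists overlapped between the groups. Of 3 plasma cell genes tested, JCHAIN, MZB1 and TNFRSF17 differed by 0.60, 0.58 and -0.29, with sums of 90.8 to 222 FPKM and 199 to 229 FPKM. The platelet genes ITGB3, ITGA2B and TUBB1 differed by -0.67, -0.47 and 0.43. Of 8 red cell genes 6 were higher, led by RHAG (1.11), SLC4A1 (1.02) and AHSP (0.92), with sums of 5979 to 13016 FPKM and 6446 to 11107 FPKM. Most of these sums was HBM, a hemoglobin chain, at 4673 to 9553 FPKM in the control dogs and 4190 to 7992 FPKM with CPP-Se. RHAG, at 1.01 to 2.56 and 4.30 to 6.46 FPKM, was 1 of 2 red cell genes that were higher without overlap (10.4% of all genes). The negative binomial model, which called 3.08% of all genes, called 3 genes each of the monocyte, neutrophil and NK lists, 2 each of the T cell, B cell and basophil and mast cell lists, and 1 red cell gene. No row had the symbol CD14 (monocytes) or NKG7 (NK cells).

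**Figure D4:**
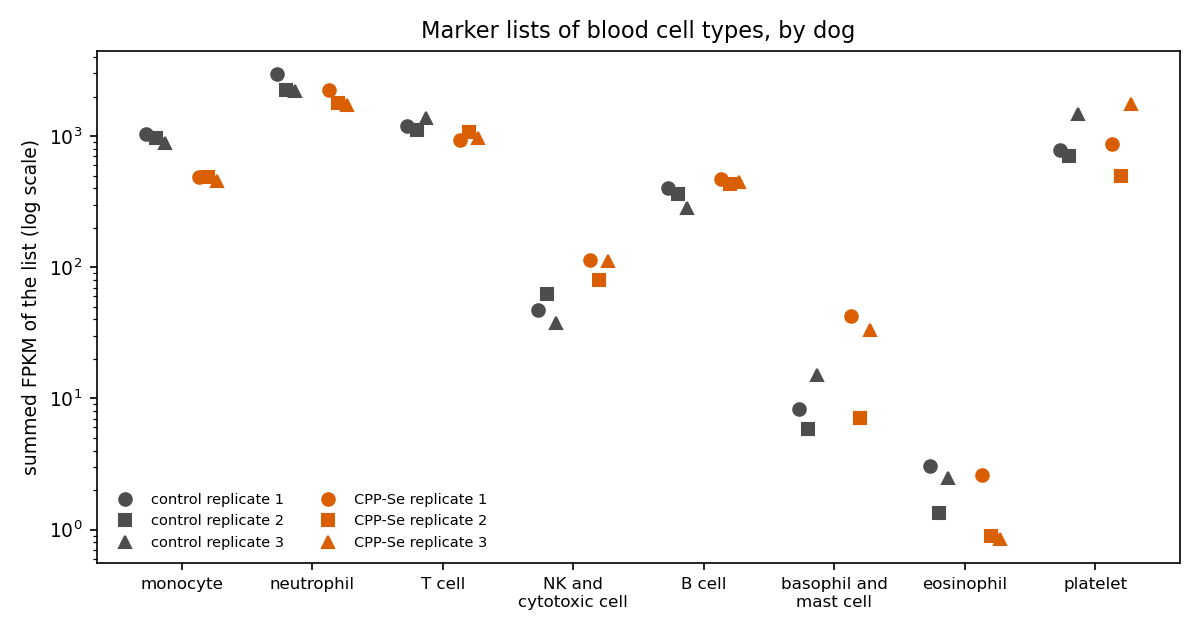
Summed FPKM (log scale) of marker lists of 8 blood cell types in each dog, control in grey and CPP-Se in orange. The monocyte sums of the CPP-Se dogs (456 to 490) lie below those of the control dogs and the NK and cytotoxic sums (79.4 to 114) above, while basophil and mast cell sums are high in CPP-Se replicates 1 and 3 only.

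The genes most like each member across the 6 dogs, by Pearson correlation of log2(FPKM + 1), are given as a description. For CCL4 these were MTX1 (r = 0.993) and LZTS2 (r = 0.993), and for CCR9 STRBP (r = 0.992) and TMEM92 (r = 0.989). CCL5 was followed most closely by DUSP14 (r = 0.993) and RNF34 (r = 0.980). The pairs for CCR1 and CCR2 were SSU72 (r = 0.994) with ZBTB24 (r = 0.993) and CA4 (r = 0.986) with ANKRA2 (r = 0.983). NAB2 (r = 0.983) and AIFM2 (r = 0.982) came first for CCR3, RPS26 (r = 0.986) and PSEN2 (r = 0.981) for CCR6, and PHF5A (r = 0.990) and GLCCI1 (r = 0.989) for CCR7. With 6 dogs such values are common: between 57 (CCR6) and 172 (CCR1) genes with a symbol reached an r of 0.9, and the points share their libraries and depth.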

How the data were processed

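Whole blood RNA of 6 dogs was sequenced as poly-A libraries (NEBNext Ultra kit, paired ends). The authors used HISAT2 2.0.5 for alignment (dog genome, Ensembl release 100) and StringTie 1.3.3b for assembly. They describe the FPKM as computed from gene length and mapped reads. The submitters' processing notes also list CASAVA 2.19, fastp 0.19.7 and featureCounts 1.5.0-p3. The gene length column deposited by the authors is in bases, a value of another kind than FPKM.

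FPKM multiplied by gene length gave whole multiples of 1 step per library for 100% of values above 0 (tolerance 0.01 reads), taken as reads. The 9847 of 31512 genes whose mean reached 1 FPKM were tested on log2(FPKM + 1) with limma 3.58.1 in R 4.3.3 (lmFit, eBayes with a trend, two-sided, Benjamini-Hochberg adjustment, group as the only term). A gene was called at a fold change of 1.5 or more with its adjusted p under 0.05. The negative binomial model of the recovered reads used the library sizes implied by the FPKM, dispersions shrunk to the local trend (prior of 10 degrees of freedom) and a Wald test. The median-of-ratios size factors of the recovered reads scaled limma-voom. When a dog was left out, the filter was set again on the other dogs. The fits were tested on simulated data. Tables and figures were made with matplotlib 3.10.9, scipy 1.17.1, pandas 2.3.3 and numpy 2.4.6 (Python 3.11.15).

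The members and gene lists were chosen with earlier results of these data known. Named are all members, related rows with at least 1 FPKM, the 3 largest differences of each list (a related row and a B cell gene under these rules are not reported here), the 2 genes most like each member, and single rows beside a member or a dog that stood apart, chosen after their values were seen (CD4, EPX, PRG3, HBM, MS4A2 and rows listed at 0). The marker sums without CD4 or MMP9 were also added after seeing the data. Same-numbered dogs did not deviate together (correlations of -0.0900 to 0.0165), so the main fit has no pairing.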

Additional observations from a re-analysis of the deposited data

How the results depend on the processing

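Over 16 other settings, 123 of 128 refitted differences of the 8 members kept their direction and their side of the threshold. Of the others, 4 passed where the reported fit did not, and 1 changed sign. The replicate block, eBayes without a trend and no filter keep the log2 differences of the reported fit by design, so only the adjusted p could change. Summing CCL3 and CCL4 alters the difference of CCL4 only. Part of the 123 could therefore not have changed direction. Median-of-ratios scaling nearly repeats the scaling of the deposited FPKM (CCL4 log2 difference 1.853 against 1.852), so it is hardly a separate setting. The number of members called was 0 in the reported fit and 0 with a pseudocount of 0.1, no filter, either other scaling, eBayes without a trend, limma-voom, the summed CCL3 and CCL4 row, or an adjusted p under 0.1. It was 1 with limma-voom with sample quality weights and 2 with the negative binomial model. With 1 dog left out it ranged from 0 to 1, and the number of members without overlap, 3 in the reported data, ranged from 3 to 6, the highest without CPP-Se replicate 2 and 5 without control replicate 2. With 1 dog left out, 29.7% to 36.3% of all genes did not overlap. The difference of CCR3 ranged from -0.27 to 0.99 with 1 dog left out and was negative only without CPP-Se replicate 1. The cause of these changes was not tested. Over all genes, 3 passed in the reported fit, 0 with a pseudocount of 0.1 or no filter, 1 with limma-voom, 184 with quality weights, 303 with the negative binomial model and 0 to 14 with 1 dog left out.

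Replicate number as a block called 0 members and 1 gene in all (CCL4 adjusted p = 0.250, limma with Benjamini-Hochberg adjustment). For CCL3, a count of 0 allows up to 3 reads per library. Its row also lies wholly inside the CCL4 row, and how reads on both rows were assigned is not given in the sources used here. Low depth and read assignment cannot be told apart for CCL3.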
